A study of Drosophila melanogaster with 4 samples.

Results

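The genes of the muscle sarcomere, the contractile unit of striated muscle, were followed in RNA sequencing of ovary follicle cells of Drosophila melanogaster. Members were taken by symbol from the authors' table of the comparison. All 32 were found among its 15682 genes; myofilin, named mf, stands in the table as Mf. They comprise 6 thick filament genes, 7 thin filament genes, 7 troponin genes, 5 Z-disc genes, 4 titin-like genes and 3 others, Msp-300, kon and the regulator Mef2.

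The study compared 2 EGFR-activated libraries with 2 control libraries. EGFR-activated follicle cells carried UAS-EGFR-lambdatop, a receptor for epidermal growth factor that signals without its ligand, together with UAS-CD8-GFP, a membrane-tethered green fluorescent protein. Control follicle cells carried UAS-CD8-GFP alone, so both groups expressed the fluorescent protein. Flies of both groups grew up at 18 °C and were held as adults at 29 °C for 7 to 10 days. The driver of the transgenes and the way the cells were isolated are not stated in the labels.

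In a sarcomere, myosin thick filaments slide along actin thin filaments that are anchored in Z-discs. Calcium bound by troponin C moves tropomyosin and allows the myosin heads to attach, and titin-like proteins link thick filaments to Z-discs. The MADS box factor MEF2 activates many of these genes during muscle differentiation. In the fly ovary, contractile muscle lies in the sheaths around the ovarioles and the ovary, whereas follicle cells contract with cytoplasmic actin and non-muscle myosin. Several members are known to act outside muscle too: Tm1, which also encodes cytoplasmic tropomyosins; tmod, the tropomodulin that caps actin pointed ends; Actn, alpha-actinin; Zasp52, a PDZ-LIM protein; Msp-300, a nesprin that positions nuclei; kon, a transmembrane protein of muscle attachment that also acts in glia; and Mef2, which also acts in follicle cells. These 7 are set beside the other 25, taken here as muscle genes.

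The deposited values are not per library: for each gene the authors' deposited table gives one mean of counts divided by size factors over all 4 libraries (the mean normalised count), a log2 fold change of EGFR-activated over control, its standard error (given after ±) and DESeq2 p-values. Unless a setting is named, single genes are quoted with the fold change, error and adjusted p of the authors' deposited table. A call means an adjusted p under 0.05. No spread between replicates is given for a group, because the table holds no values per sample and reads recovered for the least abundant members are not tied to samples. The 6 follicle cell markers examined had mean normalised counts between 4053 and 113532, and 5 germ line markers between 128 and 4500. Of the follicle cell markers, tj (0.87 ± 0.24, adjusted p = 0.00216) and eya (0.902 ± 0.25, adjusted p = 0.00171) were higher. Relative to the median of all genes they were at 0.86 and 0.89. Relative to the median of the ribosomal protein genes they were at −0.05 and −0.02. Fas3, Vm26Aa, Yp1 and psd, between −0.72 and −0.40, did not pass. After the correction for gene length described below, tj was at 0.98 (adjusted p = 0.000505) and eya at 1.05 (adjusted p = 0.000240). On that scale Vm26Aa was at −1.37 (adjusted p = 0.0336). Egfr, the gene that the transgene carries, rose by 1.498 ± 0.35 (adjusted p = 0.000177).

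Sarcomere genes were mostly lower in EGFR-activated cells. Of the 32 members, 17 fell, 1 rose, 9 were tested and did not pass, and 5 were too low to receive an adjusted p. Among all 9409 genes with an adjusted p, 17.5% were called lower and 18% called higher, against 17 of 27 and 1 of 27 members. Among the 7887 genes with a mean count of 50 or more, 18.6% were lower and 21.3% higher, against 17 and 0 of 23 members. The median log2 fold change was −1.03 over the 32 members and 0.01 over all 12650 genes with a p-value. The cells that gave these transcripts were not identified. In bulk RNA of the EGFR-activated samples, fewer muscle cells, less RNA per muscle cell and less RNA per follicle cell cannot be told apart.

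**Figure D1:**
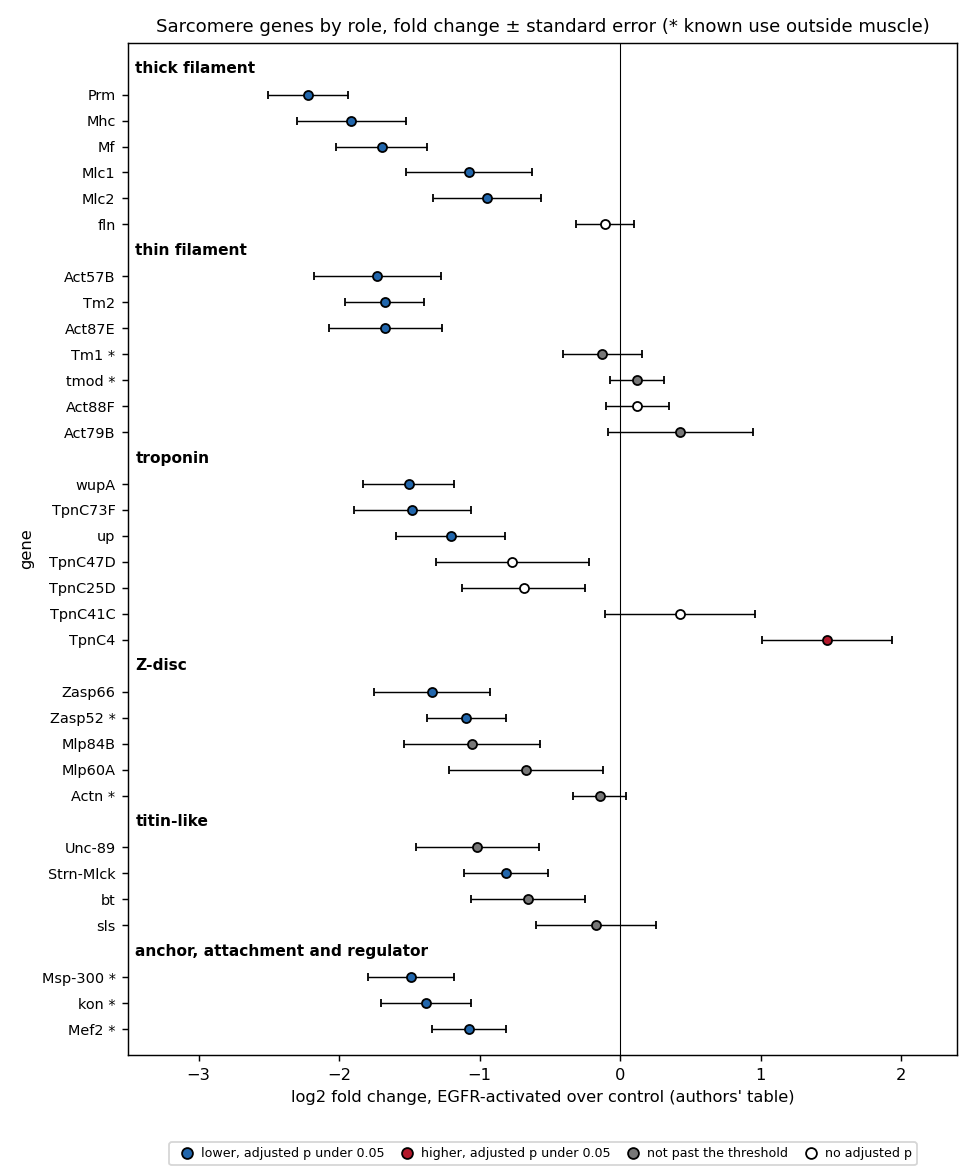
Log2 fold change of EGFR-activated over control for the 32 sarcomere genes, grouped by role; points are the authors' fold changes, bars their standard errors, and colours the calls at an adjusted p under 0.05. Of the 32 points 27 lie below 0, and TpnC4 is the single member called higher, at 1.47.

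The split by use shows 13 of the 25 muscle genes lower and 1 higher (median −1.02). The other 11 did not pass or had no adjusted p, which 20 of the 25 had. Of the 7 genes also used outside muscle, 4 were lower and 0 higher (median −1.07). Among all tested genes 17.5% were lower and 18% higher. With a mean of at least 50, 13 of 16 muscle genes were lower and 0 higher (median −1.41), beside 18.6% and 21.3% of all such genes. The 7 all had such a mean. The classes differed in abundance. The 7 held 89.3% of the summed mean normalised count of the members, 74251 of 83184, and each had a mean of at least 523. The 25 muscle genes together reached 8932, which is 0.0414% of the count over all genes, with a median of 103 and a lowest value of 0.318. Per kilobase of exon, the median level was 686 normalised counts for the 7, 31.3 for the 25 and 122 for all genes with a p-value.

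Thick filament genes were lower in EGFR-activated cells. All 5 that had an adjusted p fell, beside 17.5% of all tested genes, and flightin was almost absent. Prm, which encodes paramyosin of the filament core, had a mean normalised count of 1653 and fell by 2.22 ± 0.29 (adjusted p = 9.11e-13), a level 4.66-fold lower in EGFR-activated cells and the largest fall among the members. Mhc, the muscle myosin heavy chain gene, had a mean of 283 and fell by 1.91 ± 0.39 (adjusted p = 1.18e-05). Per kilobase of exon, Prm stood at 309 normalised counts and Mhc at 31.3. The reason for this difference in level was not tested. Mf, myofilin, had a mean of 154 and fell by 1.698 ± 0.33 (adjusted p = 3.22e-06).

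The muscle myosin light chain genes fell with adjusted p-values close to the threshold. Mlc1, the essential light chain gene, had a mean of 54.6 and fell by 1.08 ± 0.45 (adjusted p = 0.0456). Mlc2, the regulatory light chain gene, had a mean of 174 and fell by 0.95 ± 0.39 (adjusted p = 0.0418). Both calls ended when p-values were adjusted over every gene with a p-value (adjusted p = 0.0610 for Mlc1 and 0.0560 for Mlc2). The flight muscle gene fln, flightin, had 1 read in all 4 libraries together and no adjusted p.

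Thin filament genes divided by abundance and by use. The muscle actin gene Act57B had a mean of 133 and fell by 1.73 ± 0.45 (adjusted p = 0.000849), and Act87E, a second muscle actin gene, had a mean of 241 and fell by 1.67 ± 0.40 (adjusted p = 0.000290). The other muscle actins were scarce: Act79B, at a mean of 13.8, was at 0.43 ± 0.52 (adjusted p = 0.562), and Act88F of indirect flight muscle had 2 reads in all. Tm2, a tropomyosin gene with a mean of 140, fell by 1.68 ± 0.28 (adjusted p = 7.73e-08). Actin genes of flies are near-identical in their coding parts, so how reads were divided among them is uncertain; alignments that were not unique stand in a row of their own in the table.

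The 2 thin filament genes with cytoplasmic functions had no call as deposited. Tm1 had the highest mean of the members, 29906, and was at −0.13 ± 0.28 (adjusted p = 0.775), with a 95% interval of −0.68 to 0.43. The tropomodulin gene tmod, at a mean of 5707, was at 0.12 ± 0.19 (adjusted p = 0.677), with an interval of −0.26 to 0.49. Per kilobase, Tm1 was 57.1-fold more abundant than Tm2. Whether the fold changes of Tm1 and Tm2 differ was not tested, and the table does not separate the muscle and cytoplasmic transcripts of Tm1.

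Of the 7 troponin genes 3 fell, 1 rose and 3 had no adjusted p. Among all tested genes, 17.5% were lower and 18% higher. The single genes for troponin T and troponin I, up and wupA, had means of 261 and 184. Transcripts of up fell by 1.205 ± 0.39 (adjusted p = 0.00812), and those of wupA fell by 1.504 ± 0.32 (adjusted p = 3.77e-05). Of the 5 genes for the calcium sensor troponin C, TpnC73F fell by 1.48 ± 0.42 at a mean of 53.9 (adjusted p = 0.00223).

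TpnC4, a troponin C gene of flight muscle, ran the other way. It rose by 1.47 ± 0.46 (adjusted p = 0.00659) at a mean of 25.9, from 124 reads over the 4 libraries, and no exon of another gene overlaps it in the BDGP6 annotation. Centred on the ribosomal protein genes it was at 0.55 and did not pass (adjusted p = 0.307), and it was too low for a length correction. TpnC47D, TpnC41C and TpnC25D had 21, 15 and 6 reads in all 4 libraries together and no adjusted p, with fold changes of −0.77 ± 0.54, 0.43 ± 0.54 and −0.69 ± 0.44.

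**Figure D2:**
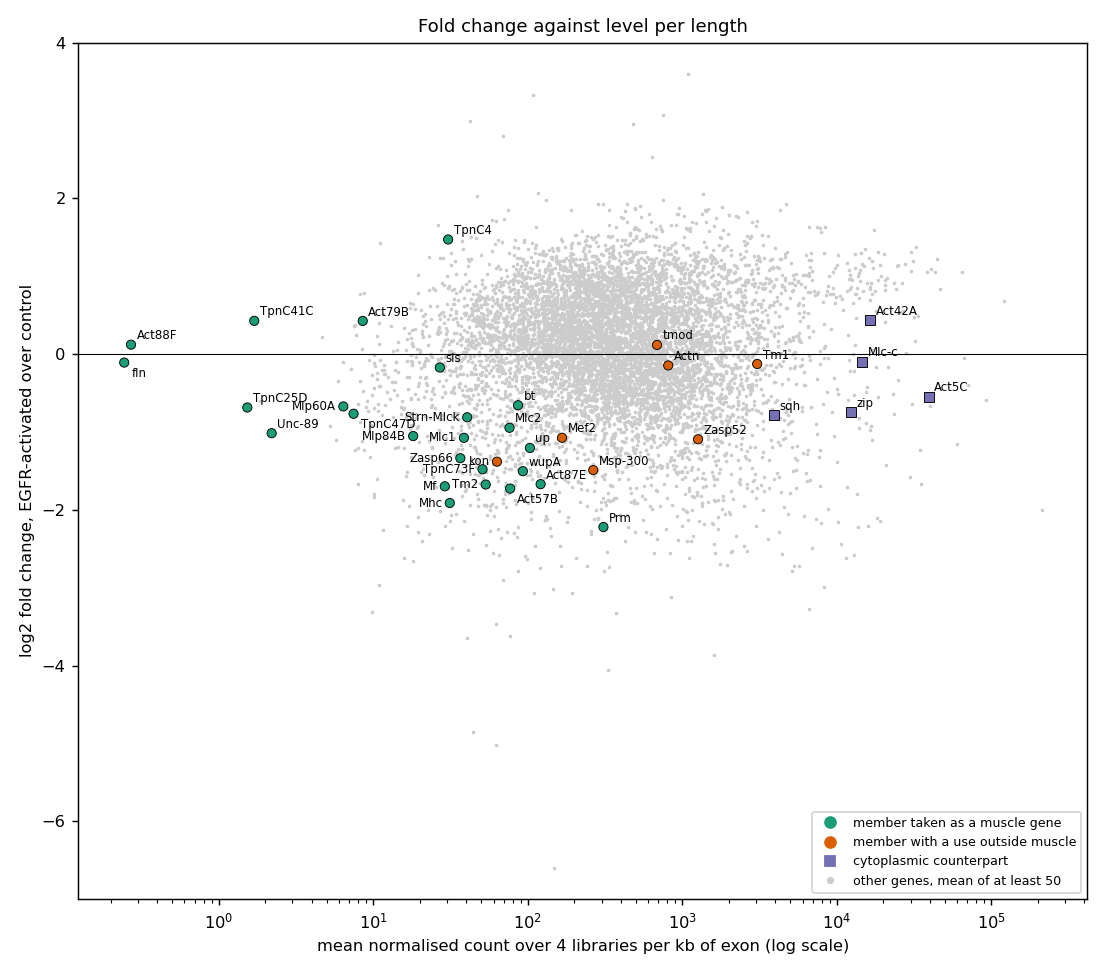
Log2 fold change of EGFR-activated over control against the mean normalised count over 4 libraries per kb of exon (log scale), for the 32 members, 5 cytoplasmic counterparts and, in grey, genes with a mean of at least 50. Muscle genes sit at or below 309 per kb, while the cytoplasmic myosin and actin genes sit at 3921 per kb or above.

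At the Z-disc, where thin filaments are anchored, 2 of 5 genes fell, beside 17.5% of all tested genes. Zasp52 had a mean of 13796 and fell by 1.09 ± 0.28 (adjusted p = 0.000764), and Zasp66, a second PDZ gene of the Z-disc with a mean of 103, fell by 1.34 ± 0.41 (adjusted p = 0.00548). Actn, the alpha-actinin gene that crosslinks thin filaments, was at −0.15 ± 0.19 at a mean of 4273 (adjusted p = 0.589), with an interval of −0.51 to 0.22. For Actn 15.7% of the exonic length overlaps east on the opposite strand in BDGP6, and the labels do not say whether reads were counted by strand. The muscle LIM protein genes Mlp84B and Mlp60A, at means of 56.8 and 18.2, were at −1.05 ± 0.48 and −0.67 ± 0.55 and did not pass (adjusted p = 0.0755 and 0.358).

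Of the titin-like genes, 1 of 4 fell, which is near the 17.5% of all tested genes that were lower. Strn-Mlck, which encodes stretchin and a myosin light chain kinase, had a mean of 1328 and fell by 0.81 ± 0.30 (adjusted p = 0.0218). The projectin gene bt was at −0.66 ± 0.41 at a mean of 2424 (adjusted p = 0.208). The sallimus gene sls was at −0.17 ± 0.42 at a mean of 1591 (adjusted p = 0.797), with an interval of −1.004 to 0.66. Unc-89, the obscurin gene of the M-line, had 109 reads in all and was at −1.02 ± 0.44 (adjusted p = 0.0545).

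These 4 genes are long, with exonic lengths between 13261 bp for Unc-89 and 58996 bp for sls in BDGP6. Per kilobase bt reached 86.5 normalised counts and sls 27.0, close to the 31.3 of Mhc, although their mean counts of 2424 and 1591 were above the 283 of Mhc.

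The anchor gene Msp-300, the attachment gene kon and the regulator Mef2 all fell, beside 17.5% of all tested genes. Msp-300 had a mean of 18515 and fell by 1.49 ± 0.31 (adjusted p = 1.43e-05). The gene kon, at a mean of 523, fell by 1.38 ± 0.32 (adjusted p = 0.000157). Mef2 had a mean of 1531 and fell by 1.07 ± 0.27 (adjusted p = 0.000412), a level 2.11-fold lower in EGFR-activated cells.

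Mef2 is also among the 40 transcription factors of the authors' second deposited table. There Cuffdiff gave it a log2 fold change of −1.13 with an adjusted p of 0.00165, from the same libraries. An RNAi line against Mef2 is listed with a phenotype in early follicle cells at a penetrance under 15%. Of 26 factors with an entry in that column, 16 are listed with none and 7 in the class of Mef2.

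Gene length mattered for the comparison of the classes. Fold changes fell with length over 7817 genes with a mean of 50 or more whose exonic length was known: the median was −0.48 in the 782 longest, of 6155 bp or more, and 0.76 in the 782 shortest. The 7 members used outside muscle have a median exonic length of 9188 bp, and the 25 muscle genes one of 2286 bp. A smooth curve of fold change on length (lowess) was therefore subtracted, which also removes any biology that follows length. The curve stood at −0.86 at the length of Msp-300 and at 0.53 at that of TpnC73F.

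With the length trend removed, 12 of 16 muscle genes with a corrected value were lower and 0 higher, with a median of −1.41 both before and after the removal. Of the 7 members used outside muscle, 1 was lower (kon, −0.93, adjusted p = 0.0180) and 1 higher (tmod, 0.57, adjusted p = 0.0130), and their median moved to −0.58 from −1.07. On this scale 17% of 7817 genes were lower and 11.4% higher. The calls of Msp-300 (−0.63, adjusted p = 0.111), Zasp52 (−0.58, adjusted p = 0.111), Mef2 (−0.60, adjusted p = 0.0767) and Strn-Mlck (−0.09, adjusted p = 0.861) ended. Of the 17 members lower as deposited, 13 were still lower, among them Prm at −1.90, Act57B at −1.98, TpnC73F at −2.01 and Mhc at −1.44. The difference between the classes was not tested.

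**Figure D3:**
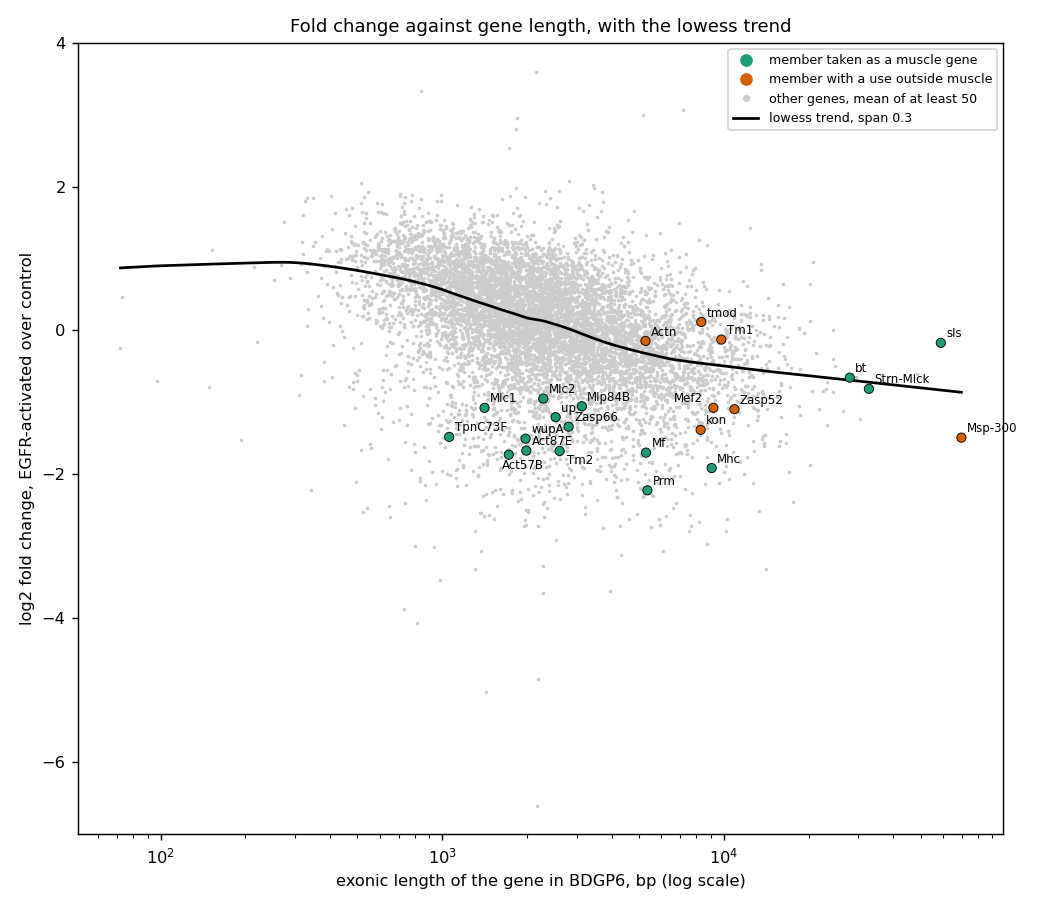
Log2 fold change of EGFR-activated over control against exonic length in BDGP6 (bp, log scale) for genes with a mean of at least 50 (grey), with the lowess trend as a line and the 23 members with a corrected value coloured by class. Filament genes such as Prm and Mhc lie below the line, while Strn-Mlck and bt lie close to it and tmod lies above it.

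Scaling by ribosomal protein genes moved all genes down. Their median log2 fold change was 0.92, and subtracting it left the median of all genes at −0.91. On that scale 25 of 27 members and 56.2% of all tested genes were lower, and 0 members, against 1.02% of all, were higher. All 17 members lower as deposited were lower on it too, because the shift makes negative fold changes more negative. Of the 7 alternative settings, only removal of the length trend could turn a negative fold change positive. All 17 stayed negative under it, and 13 were still called lower. The directions of tmod, Act79B, Act88F and TpnC41C turned negative on the ribosomal scale, and those of Tm1, Actn, sls and bt turned positive after removal of the length trend. None of these 8 was called as deposited.

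**Figure D4:**
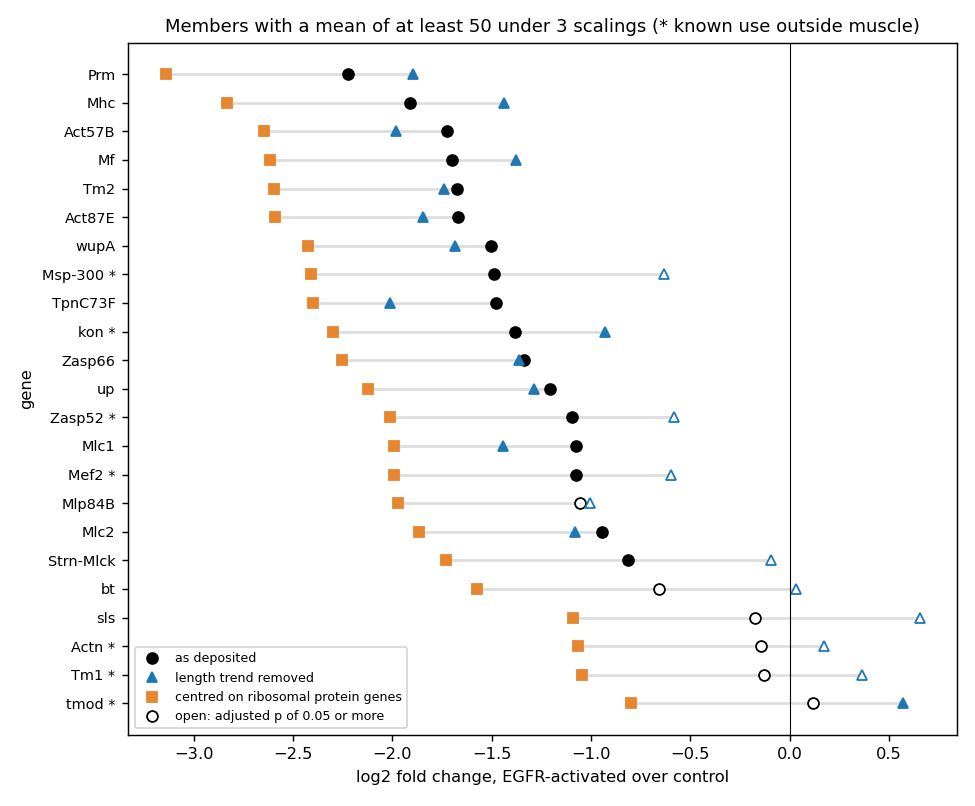
Log2 fold change of EGFR-activated over control of 23 members with a mean count of 50 or more, as deposited (circles), with the length trend removed (triangles) and centred on the ribosomal protein genes (squares); filled symbols have an adjusted p under 0.05. Prm, at −2.22, −1.90 and −3.14, is filled on all 3 scales, and Msp-300, Zasp52, Mef2 and Strn-Mlck are open after removal of the length trend.

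The cytoplasmic counterparts of the muscle proteins were far more abundant, with fold changes between −0.78 and 0.43. Per kilobase, zip, the non-muscle myosin heavy chain gene, stood at 12323 normalised counts, 394-fold above Mhc at 31.3. The regulatory light chain gene sqh stood at 3921, 51.5-fold above Mlc2, and the essential light chain gene Mlc-c at 14609, 378-fold above Mlc1. Of these counterparts, sqh fell by 0.78 ± 0.17 (adjusted p = 4.91e-05) and zip fell by 0.75 ± 0.21 (adjusted p = 0.00208), while Mlc-c was at −0.10 ± 0.23 (adjusted p = 0.786). The cytoplasmic actin gene Act5C fell by 0.55 ± 0.17 (adjusted p = 0.00591) and Act42A rose by 0.43 ± 0.18 (adjusted p = 0.0483). With the length trend removed, sqh was at −1.09 (adjusted p = 5.73e-09) and Act5C at −0.54 (adjusted p = 0.00870), and these kept their calls. Mlc-c was at −0.47 on that scale and did not pass (adjusted p = 0.119). The calls of zip (−0.32, adjusted p = 0.263) and Act42A (0.15, adjusted p = 0.605) ended. That of Act42A also ended when centred on the median of all genes (adjusted p = 0.0542) and when adjusted over every gene with a p-value (adjusted p = 0.0646), and it turned to −0.49 on the ribosomal scale. Whether each differs in fold change from its muscle counterpart was not tested.

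Muscle genes outside the sarcomere were examined in 3 lists of 25 genes in all. Of the 22 with an adjusted p, 6 fell and 2 rose, beside 17.5% and 18% of all tested genes, and the median over the 25 was −0.07. Mp20, a calponin-like protein of synchronous muscle, fell by 2.13 ± 0.38 (adjusted p = 3.74e-07) and Scgdelta, a sarcoglycan, fell by 1.33 ± 0.42 (adjusted p = 0.00730), while the other 5 of the 7 other muscle proteins did not pass. Among 7 calcium handling genes, Ca-beta, a calcium channel subunit, fell by 1.29 ± 0.34 (adjusted p = 0.000843) and Itp-r83A, the inositol trisphosphate receptor, fell by 1.07 ± 0.19 (adjusted p = 6.47e-07).

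The calcium pump gene Ca-P60A, used in most cells, was at −0.03 ± 0.24 (adjusted p = 0.936). Of 11 myogenesis genes, how, an RNA-binding factor, fell by 0.93 ± 0.31 (adjusted p = 0.0110) and mbc, which acts in myoblast fusion, fell by 0.53 ± 0.20 (adjusted p = 0.0276). With the length trend removed neither passed (adjusted p = 0.122 for how and 0.776 for mbc). The homeobox gene Six4 rose by 1.70 ± 0.21 (adjusted p = 4.6e-14) and rols, also a fusion gene, rose by 0.71 ± 0.26 (adjusted p = 0.0229), or −0.21 on the ribosomal scale. The founder cell gene nau and the heart gene tin had means of 1.84 and 4.29.

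Markers of some other tissues were lower in the same comparison. Of 4 fat body markers, Lsp2, a storage protein gene, fell by 1.67 ± 0.31 (adjusted p = 1.09e-06), Rfabg, the lipophorin gene, fell by 2.002 ± 0.22 (adjusted p = 4.51e-18), Fbp2 had a mean of 1.81, and Fbp1 was at 0. Both oenocyte markers fell: Cyp4g1 fell by 3.27 ± 0.27 (adjusted p = 6.91e-31) and Fad2 fell by 3.32 ± 0.39 (adjusted p = 1.17e-15). Of 2 tracheal markers btl, at a mean of 865, fell by 1.898 ± 0.35 (adjusted p = 1.01e-06) and trh had a mean of 3.30.

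Of 4 hemocyte markers srp had a mean of 10078 and fell by 1.53 ± 0.25 (adjusted p = 1.7e-08). Hml, at a mean of 36.0, was at −0.10 ± 0.52 (adjusted p = 0.912). Pxn, at a mean of 58.0, was at −0.92 ± 0.40 (adjusted p = 0.0632). The gene nimC1, at a mean of 7.03, was at −0.15 ± 0.55 with no adjusted p. None of the 5 germ line markers or the 2 neuronal markers in the table was called by DESeq2, also at an unadjusted p under 0.05. The summed mean normalised counts were 15553 for oenocytes, 10179 for hemocytes, 9078 for the fat body, 6607 for the germ line, 1972 for neurons and 868 for trachea. That of the 25 muscle genes was 8932. Sums over a few chosen markers do not measure the amount of a tissue. Those of hemocytes and trachea came almost wholly from srp and btl, and which cells gave these transcripts was not tested. The part that other tissues have in the fall of the muscle genes was not tested.

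**Figure D5:**
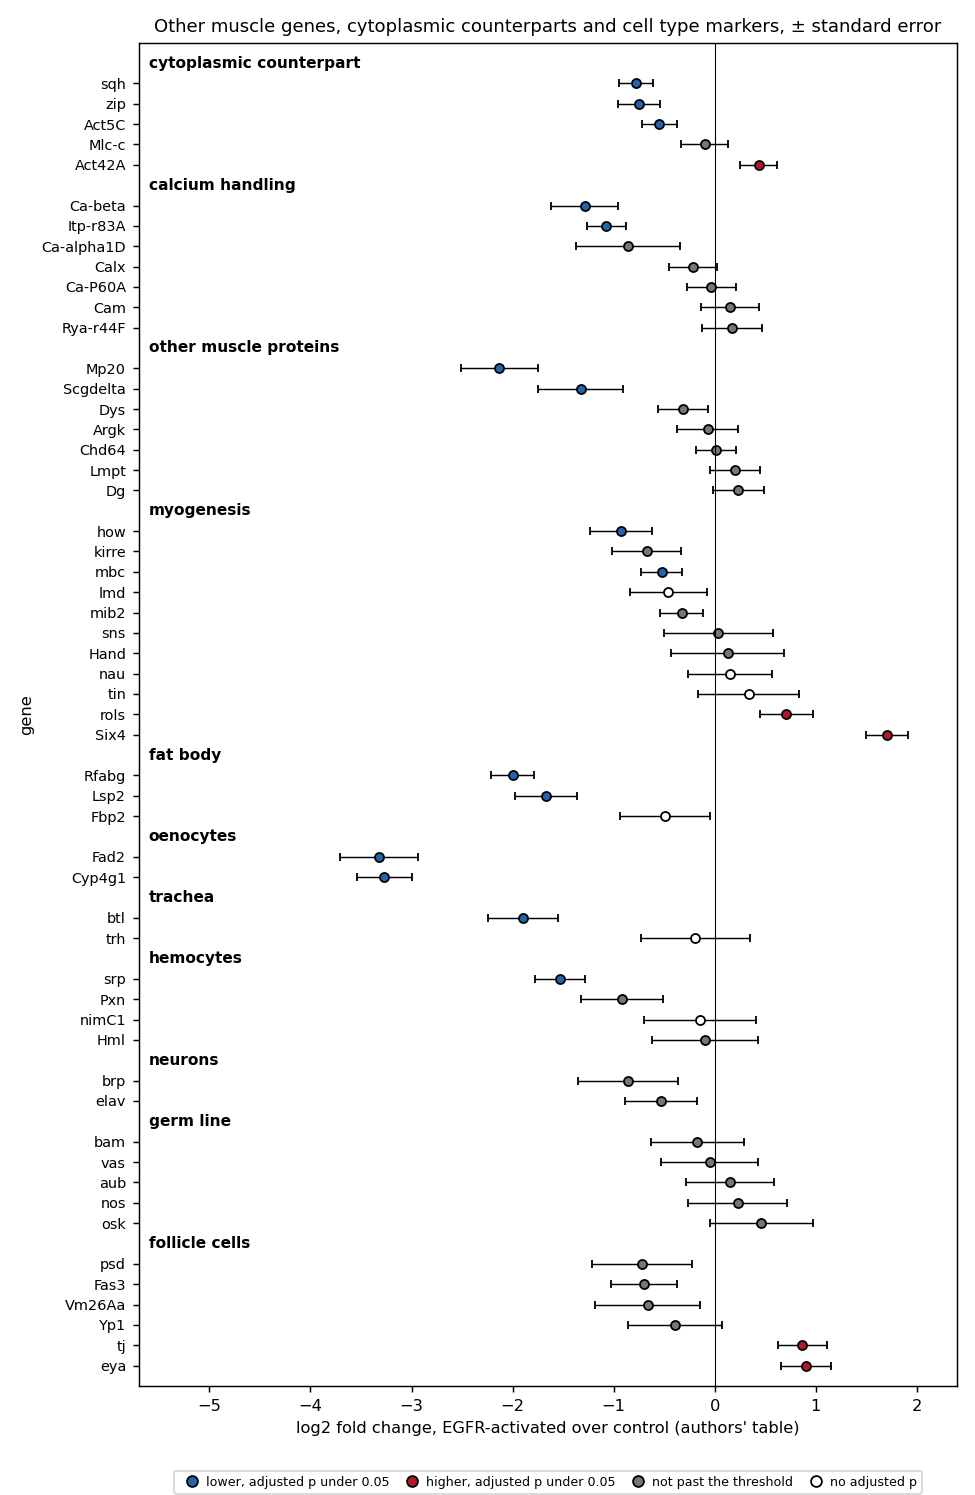
Log2 fold change of EGFR-activated over control, with the authors' standard errors, for cytoplasmic counterparts, muscle genes outside the sarcomere and markers of other cell types with a value. Oenocyte markers lie at −3.32 and −3.27 and the germ line markers lie between −0.17 and 0.46.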

How the data were processed

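RNA from 2 EGFR-activated and 2 control samples was selected by oligo-dT and prepared with ScriptSeq v2, per the labels' protocols. TopHat2 2.0.10, HTSeq 0.6.1, DESeq2 1.2.10 and BDGP5 are named, per the submitters' processing notes. The authors deposited 1 table with a signal (mean count over libraries after division by size factors), log2 fold changes with errors, a Wald score and p-values raw and adjusted, per the file headers. The authors' second table holds log2 fold changes of DESeq2 and Cuffdiff and a penetrance class. Fold changes from the authors' DESeq2 version are shrunk by default, which may understate those of low genes. The submitters call the 2 replicates a group biological.

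The members and lists were chosen with earlier results of these data known. All members are named, with called genes of the other muscle lists, up to 4 a list; Ca-P60A, nau and tin were added after their values were seen. No counts per library were held, so edgeR, named in the design, was not run and the authors' adjusted p was used at 0.05. Left out were 5 rows for reads without a gene (non-unique alignments 41.2%, no gene 4.94%, ambiguous 0.896% of the summed mean). Columns of other samples numbered 0. Mean counts summed to 21565892 over genes, and the lowest mean with an adjusted p was 7.73.

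Lengths are unions of BDGP6 exons, matched by name for 99.1% of 7887 genes with a mean count of 50 or more. Builds differ, so no coordinates are given. The length trend (lowess, span 0.3, statsmodels 0.14.6) was subtracted and p recomputed from fold change over error. This step was run on simulated data with a straight trend on log length and normal errors. Such data cannot show how well the curve fits the longest members here. Intervals of 95% use the standard error. For the 12 members with a mean under 60, whole reads per library were recovered as the only 4 whole numbers that, each divided by its library's size factor, average to the deposited mean within 1.5e-08; all 3454 genes with a mean under 10 gave 1 solution. The markers bru1 and nSyb were not matched.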

Additional observations from a re-analysis of the deposited data

How the results depend on the processing

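No paired analysis was possible because the deposited values are not per library and the reads recovered for the least abundant genes are not tied to samples; for the same reason no replicate was left out and no count test was rerun. The count of lower members was 17 as deposited and between 13 (length trend removed) and 25 (ribosomal scale) under the 7 alternatives. The count of higher members was 1 as deposited, and 0 on the ribosomal scale and with genes of a mean of at least 50 only, which leaves TpnC4 out. The median of −1.03 moved to −1.95 on the ribosomal scale and lay between −1.20 and −1.04 under the 3 other alternatives that change fold changes or genes; the remaining 3 change the calls alone. Directions turned on the ribosomal scale for tmod (−0.80), Act79B (−0.49), Act88F (−0.80) and TpnC41C (−0.49), and after removal of the length trend for Tm1 (0.36), Actn (0.17), sls (0.66) and bt (0.034). Centring on the median of all genes changed no member's call. At a threshold of 0.01 the calls of Mlc1, Mlc2 and Strn-Mlck ended, and at 0.1 Mlp84B and Unc-89 were also called lower. Of 32 members, 9 had a mean under 50 and so no length correction. The cause of these changes was not tested beyond the settings themselves.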

Other observations

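The authors' second deposited table lists 2 further factors of muscle identity, picked here after their values were seen. The homeobox gene lms was at −1.62 by DESeq2 (adjusted p = 0.0085) and at −0.71 by Cuffdiff (adjusted p = 1). The T-box gene org-1 was at −1.53 by DESeq2 (adjusted p = 0.0001) and at −1.77 by Cuffdiff (adjusted p = 0.0111).

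Whole reads of the 12 least abundant members could be recovered per library. No library was assigned to a sample or group; they are called a to d, with size factors of 1.46, 1.16, 0.786 and 0.773. TpnC4 had 59 reads in a, 48 in b, 8 in c and 9 in d, whereas TpnC73F had 26, 36, 61 and 69 in the same order. Divided by size factors, TpnC4 stood at 40.4, 41.4, 10.2 and 11.6 and TpnC73F at 17.8, 31.1, 77.6 and 89.3. Mlc1 had 30, 48, 69 and 53 reads, or 20.5, 41.4, 87.8 and 68.6 after this division. Unc-89 had 24, 21, 29 and 35 reads, or 16.4, 18.1, 36.9 and 45.3. The muscle LIM protein genes were highest in library c: Mlp84B had 33, 46, 90 and 39 reads and Mlp60A had 12, 17, 30 and 9. Divided by size factors, Mlp84B stood at 22.6, 39.7, 114.5 and 50.5 and Mlp60A at 8.22, 14.7, 38.2 and 11.6. TpnC47D also had most of its reads in library c, with 4, 2, 13 and 2, and so did TpnC25D, with 0, 0, 5 and 1. Act79B had 25, 19, 7 and 10 reads, or 17.1, 16.4, 8.91 and 12.9 divided by size factors. TpnC41C had 8, 4, 2 and 1 reads, or 5.48, 3.45, 2.54 and 1.29. Act88F had 2 reads, both in b, and fln 1 read, in c. Counts this small carry a wide counting error.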
